A study of Saccharomyces cerevisiae with 60 samples.

Results

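The 56 genes described here encode assembly factors of the large (60S) ribosomal subunit of budding yeast, proteins that build the subunit and then leave it. They were taken from a fixed list of gene symbols, drawn up with earlier results of these data known. Counts over the 56 therefore describe this list and not all 60S factors. All 56 were found among the 7126 features of the deposited count tables. Poly(A) RNA had been sequenced for 60 libraries, with 3 replicates for every combination of 4 strain states and 5 temperature treatments. The strains, all W303, carried Hsf1, the essential activator of the heat shock response, in an anchor-away form. Adding rapamycin to such cells takes the tagged protein out of the nucleus. Cells of the strain with intact MSN2 and MSN4 were given DMSO (labelled wildtype, called wild type here) or rapamycin (labelled -hsf1, called Hsf1-depleted). Cells lacking MSN2 and MSN4, a pair of activators of the general stress response, were given DMSO (labelled msn2Δ/msn4Δ, called MSN-deleted) or rapamycin (labelled -hsf1/msn2Δ/msn4Δ, called double-loss). All cells grew at 25 °C in rich glucose medium with adenine, received rapamycin or DMSO for 45 min, and were sampled at 25 °C or after 10 or 30 min at 37 °C or 42 °C. Rapamycin thus separates both Hsf1-depleted states from both DMSO states, and the labels do not say whether the strains resist its effect on TORC1, the growth kinase that drives ribosome production. At 25 °C none of the 56 genes passed the test between rapamycin and DMSO cells of the same strain, and the part of rapamycin itself in the heat responses was not tested.

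Large subunit assembly starts in the nucleolus on the transcript of RNA polymerase I. RNA helicases, methyltransferases and scaffold proteins fold the precursor of the large rRNAs, and ring-like modules then close around its domains. GTPases and placeholder proteins carry the particle through the nucleoplasm, and export and cytoplasmic factors finish it. In yeast these genes belong to the ribosome biogenesis regulon, which is transcribed strongly in growing cells and is repressed in many stresses. The upstream regions of this regulon are known for the PAC element, bound by the repressors Dot6 and Tod6, and the RRPE element, bound by Stb3.

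The upstream sequences are shown first because the genes share these 2 elements and the list was not chosen by them. In the 300 bases before the start codon, the PAC core GATGAG was present on either strand in 53 of 56 genes (94.6%) and in 19.1% of all 6001 such windows. The RRPE core AAAAATTT, also searched on both strands, was present in 47 genes (83.9%) and in 15.1% of all windows. Both cores stood before 44 genes (78.6%) against 5.6% of all windows, and 0 of the 56 had neither. The longer forms GCGATGAG and GAAAAATTT, which contain these cores, were present in 35 genes (62.5%, all windows 4.0%) and 29 genes (51.8%, all windows 6.6%). AGGGG, the core bound by Msn2 and Msn4, was present in 4 genes (7.1%, all windows 22.2%). TTCNNGAA, a short form of the heat shock element, was present in 10 genes (17.9%, all windows 13.1%). A letter match describes the window and is not a bound site.

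The stretch from 220 to 60 bases before the start codon is printed for 6 genes, in RefSeq sequence of build R64, 5′ to 3′ on the strand of the gene, with PAC and RRPE cores in capitals on either strand. NOG2 (chrXIV:723172-723332, minus strand) and NOG1 (chrXVI:370758-370918, plus strand) encode nuclear GTPases, and NIP7 (chrXVI:153275-153435, plus strand) encodes a protein of the same particles. These 3 genes had some of the largest heat responses. ERB1 (chrXIII:370577-370737, minus strand) is a scaffold of the Nop7 complex, with a response near the middle. SPB4 (chrVI:146994-147154, minus strand) and NSA1 (chrVII:299758-299918, plus strand) followed the other genes less closely.
NOG2: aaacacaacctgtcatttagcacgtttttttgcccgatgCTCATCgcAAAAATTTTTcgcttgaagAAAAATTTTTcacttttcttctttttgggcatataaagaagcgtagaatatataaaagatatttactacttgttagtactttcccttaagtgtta
NOG1: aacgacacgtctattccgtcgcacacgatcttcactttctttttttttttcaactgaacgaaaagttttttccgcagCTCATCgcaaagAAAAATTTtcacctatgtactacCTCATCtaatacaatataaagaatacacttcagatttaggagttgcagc
NIP7: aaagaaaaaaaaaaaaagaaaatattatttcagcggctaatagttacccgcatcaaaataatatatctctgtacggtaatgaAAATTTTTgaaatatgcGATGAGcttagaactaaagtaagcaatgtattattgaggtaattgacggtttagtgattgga
ERB1: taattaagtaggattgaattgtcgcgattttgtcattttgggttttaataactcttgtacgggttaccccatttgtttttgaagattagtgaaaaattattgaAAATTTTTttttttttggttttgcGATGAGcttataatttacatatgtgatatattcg
SPB4: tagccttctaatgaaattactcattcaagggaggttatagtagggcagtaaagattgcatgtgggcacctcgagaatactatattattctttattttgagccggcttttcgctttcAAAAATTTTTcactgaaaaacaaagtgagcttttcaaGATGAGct
NSA1: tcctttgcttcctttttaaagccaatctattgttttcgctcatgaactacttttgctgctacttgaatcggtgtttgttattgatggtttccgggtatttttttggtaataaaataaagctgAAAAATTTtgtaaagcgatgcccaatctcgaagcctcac

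NOG2 held 4 RRPE matches in overlapping letters and 1 PAC match, NOG1 held 2 PAC matches and 1 RRPE match, and NSA1 held no PAC match. The other genes without a PAC match were RIX1 and SPB1. Those without an RRPE match were CGR1, DBP10, DBP6, LOC1, MAK5, NOC3, RRP1, RRP15 and SDA1. Counting the match closest to the start codon in each gene, the median distance was 116 bases for PAC and 140 bases for RRPE. SPB4 had its PAC core at 67 bases.

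**Figure D1:**
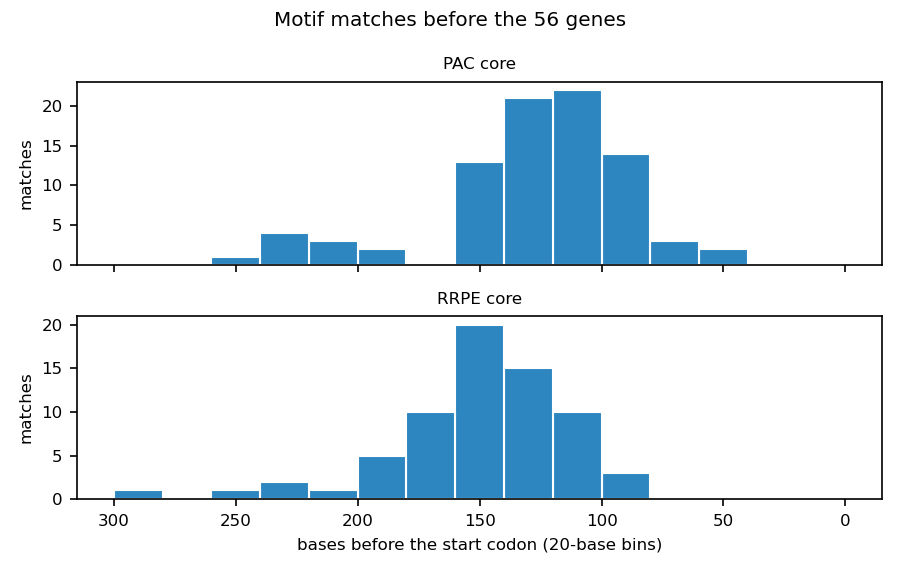
Histogram of all PAC (upper) and RRPE (lower) core matches before the 56 genes, with the distance from the start codon in bases on the x axis and the number of matches per 20-base bin on the y axis. Of 85 PAC matches 69, and of 68 RRPE matches 63, lie between 90 and 200 bases before the start codon. Overlapping matches are counted separately, so AAAAATTTTT gives 1 RRPE match on each strand, and matches outnumber separate sites. Distances over all windows were not summarized.

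Library totals ran from 3848210 to 10142858 counts (median 5938357). Levels are given as CPM, counts scaled to a common library size with TMM factors, while shares of counts use the plain totals. Both are relative to the other RNA in a library and do not give an amount of RNA. Taking 3 counts as the limit that a count of 0 allows, a gene with 0 counts lay below 0.281 to 1.09 CPM, depending on the library, and this limit covers counting error only. MSN2 and MSN4 reached at most 0.33 and 1.49 CPM in the 30 libraries of the deleted strain, and at least 99.28 and 87.96 CPM in the others. HSF1 mRNA does not check anchor-away, which moves the protein. Nothing in the labels says that replicates came from separate cultures, so the spread behind each p-value may be technical. The libraries farthest from their group mates were MSN-deleted at 42 °C for 10 min replicate 1, double-loss at 25 °C replicate 2, Hsf1-depleted at 25 °C replicate 1, double-loss at 37 °C for 30 min replicate 2 and wild type at 37 °C for 10 min replicate 3. Several of the counts of called genes below are also given without these 5 libraries. The libraries also fall into 6 sets of 10 by the names of the count tables, with 3 sets for each strain, and counts with the set as a term in the fit are given where they differ by over 1.5 times.

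At 25 °C in wild type the 56 genes together held 0.860% ± 0.0871 of all counts (SD, n = 3). Their levels, as CPM per kilobase of counted length, differed widely. TIF6, which keeps the young subunit from joining the small one, was highest at 726.8 ± 164.3, followed by ARX1, an export factor, at 387.7 ± 129, and NOG1 at 336.1 ± 78.72. Placeholder gene RLP24 stood at 310.2 ± 34.33. The libraries of ARX1 (259.5 to 517.5) overlapped those of NOG1 and RLP24, and the lowest TIF6 library (583.2) lay above the highest of ARX1. The lowest levels were those of RRP1 (18.84 ± 7.028), SSF2 (16.72 ± 2.391), SSF1 (9.271 ± 1.309) and CGR1 (7.062 ± 2.139). SSF1 and SSF2 are close paralogs that act with Rrp14 and Rrp15, and how reads common to both were counted is not given in the sources used here.

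Strain state changed none of the 56 genes at 25 °C by the test used throughout, edgeR's quasi-likelihood F test (two-sided) with a Benjamini-Hochberg adjusted p under 0.05 over all 6070 genes tested and a log2 fold change of at least 1 in size. The median log2 fold change of the 56 was -0.27 in Hsf1-depleted, -0.53 in MSN-deleted and -0.34 in double-loss cells against wild type, and 0.14 in double-loss against MSN-deleted cells. Over all genes 0.198%, 0.115%, 0.494% and 0.329% were called in either direction in these 4 comparisons. At an unadjusted p under 0.05 the number of the 56 was 0, 12, 5 and 0, and DESeq2 also called 0 in each. The share of counts was 0.680% ± 0.256 in Hsf1-depleted, 0.585% ± 0.0828 in MSN-deleted and 0.668% ± 0.314 in double-loss cells, and every pair of these 4 states overlapped except wild type and MSN-deleted. Double-loss replicate 2 stood at 1.03% against 0.488% and 0.486% in its mates. It is among the 5 libraries named above, and double-loss heat counts are also given without those 5 together. Strain and library set cannot be told apart at 25 °C.

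In wild type every one of the 56 fell in each of the 4 heat conditions. The median log2 fold change in wild type was -5.23 after 10 min and -2.68 after 30 min at 37 °C, and -3.29 after 10 min and -5.86 after 30 min at 42 °C. Over all 6070 genes, 22.2%, 13.1%, 18.2% and 29.5% were called lower in these conditions, and the median of all genes was -0.04 in both the first and the last. The share of counts on the 56 genes went from 0.860% to 0.027% ± 0.0077, 0.147% ± 0.0175, 0.0682% ± 0.0256 and 0.019% ± 0.0015 in the same order. No wild-type library after heat overlapped one at 25 °C. In these bulk samples fewer cells with the RNA and less RNA per cell cannot be told apart.

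**Figure D2:**
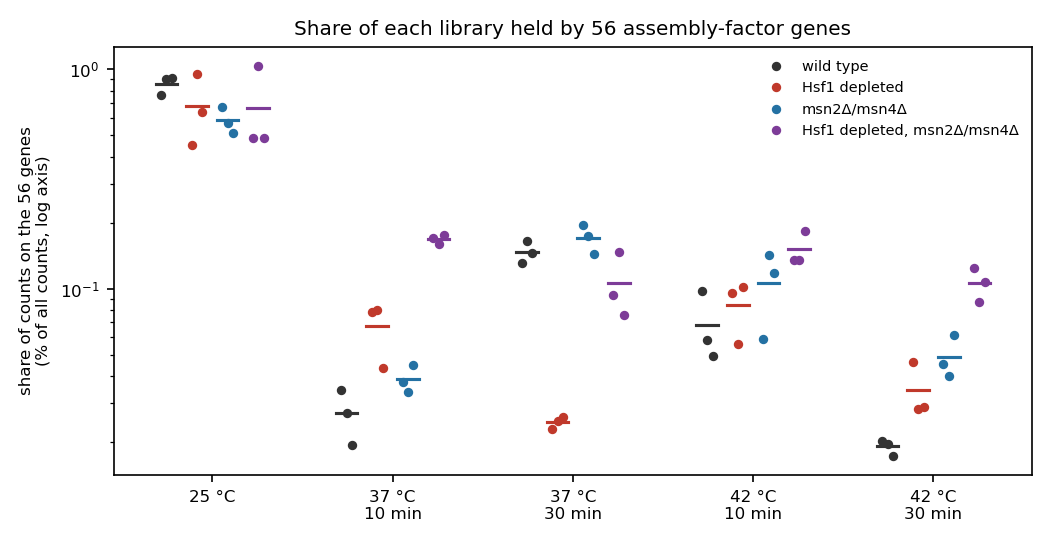
Share of each library's counts that lay on the 56 genes (y axis, percent, log axis) by condition (x axis) and strain state (colour), with 1 point per library and a bar at the mean of 3. At 37 °C the wild-type mean goes from 0.027% at 10 min to 0.147% at 30 min and the Hsf1-depleted mean from 0.0673% to 0.0246%.

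In the 12 heat conditions of the other states the genes also fell, with few exceptions. Of 896 pairs of a gene and a heat condition in the 4 states, 866 were called lower and 0 higher, and 46 of the 56 genes were called lower in all 16. The share of all genes called lower in all 16, or over all such pairs, was not counted. In Hsf1-depleted cells 56, 56, 53 and 55 genes fell at 37 °C for 10 min, 37 °C for 30 min, 42 °C for 10 min and 42 °C for 30 min (all genes called lower 15.2%, 25.0%, 17.2% and 27.2%), with medians of -3.61, -5.38, -2.94 and -5.32. In MSN-deleted cells 56, 53, 49 and 54 fell (all genes 13.2%, 7.87%, 13.7% and 23.2%), with medians of -4.46, -2.00, -2.52 and -4.35. In double-loss cells 53, 54, 49 and 54 fell (all genes 8.58%, 20.9%, 13.6% and 24.6%), with medians of -2.35, -3.39, -2.43 and -3.99. Without the 5 libraries named above the double-loss counts were 47, 52, 47 and 51, with 1 gene higher in the last, and those of the other states were 48 to 56.

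**Figure D3:**
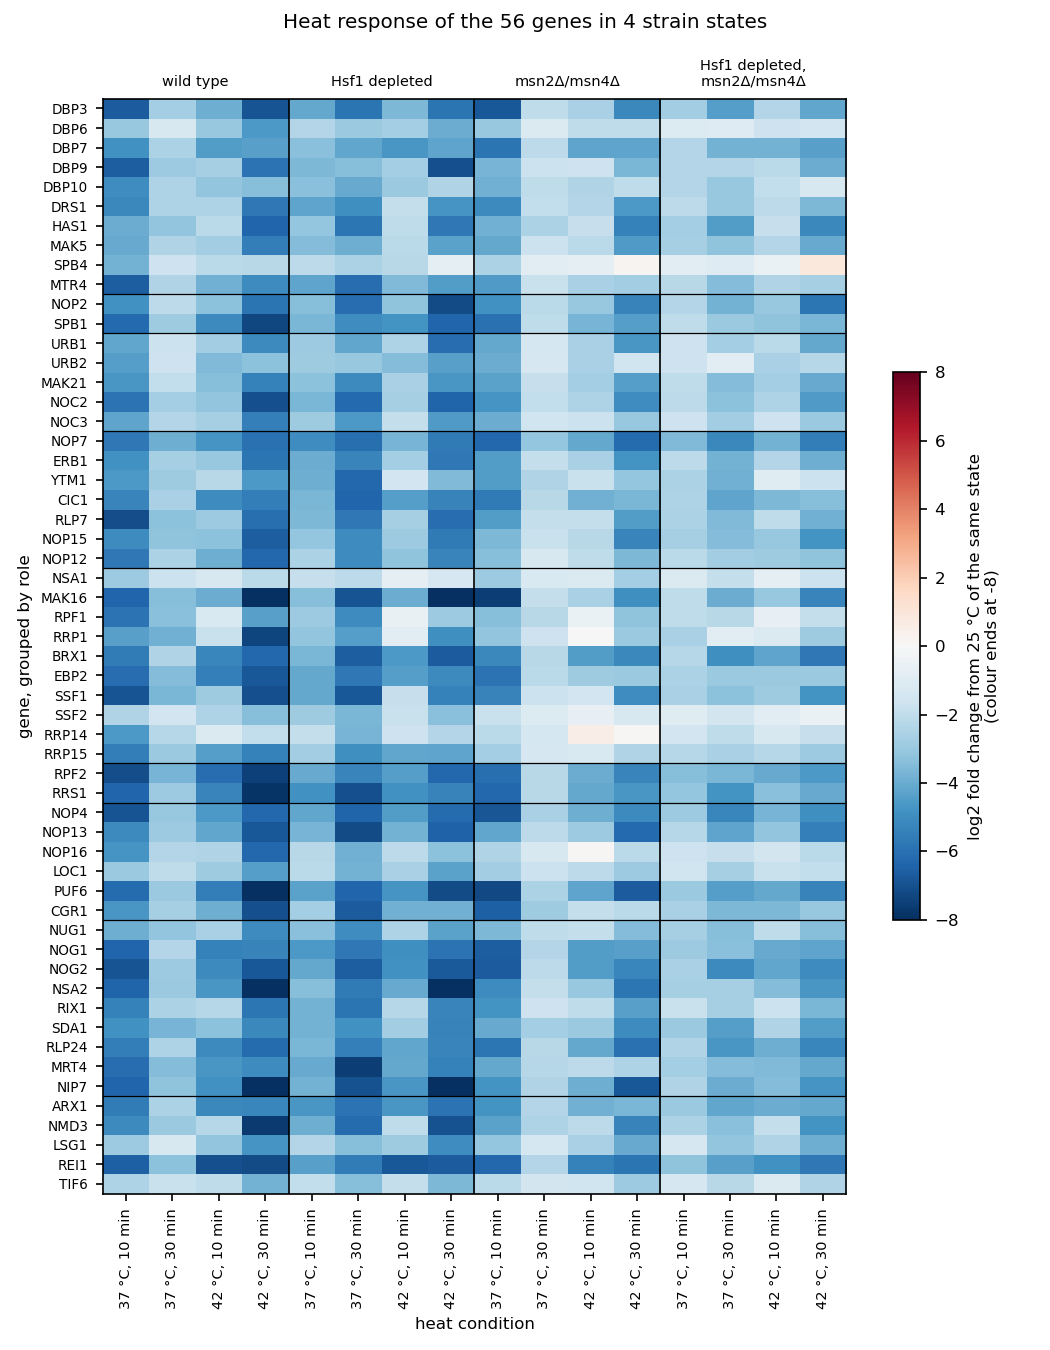
Log2 fold change of each of the 56 genes (rows, grouped by role and divided by lines) in each heat condition against 25 °C of the same strain state (columns), in colour with blue for lower. Nearly all cells are blue, and SPB4 is pale at 42 °C for 30 min in 3 states. The darkest cells include MAK16, NIP7 and NSA2 at 42 °C for 30 min in wild type and Hsf1-depleted cells. Those rest on 0 to 2 counts per group of 3 libraries. PUF6 in wild type in that condition, also among the darkest, had 6, 1 and 1 counts. The colour ends at -8.

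By role, the helicases unwind and proofread the precursor RNA. All 10 fell in each wild-type condition, with a median of -4.89 at 37 °C for 10 min and -2.47 at 30 min. HAS1, a helicase used in both subunits, stood at 239.08, 351.28 and 256.34 CPM at 25 °C in wild type, at 21.85, 24.53 and 7 CPM after 10 min and at 30.9, 30.33 and 33.05 CPM after 30 min at 37 °C. Its log2 fold changes were -3.97 ± 0.33 (SE, adjusted p = 3.1e-14, edgeR) at 10 min and -6.36 ± 0.39 (adjusted p = 3.2e-19) after 30 min at 42 °C. MTR4, the helicase that feeds RNA to the exosome, stood at 161.18, 141.2 and 121.76 CPM at 25 °C and at 1.23, 1.91 and 1.22 CPM after 10 min at 37 °C. DBP6, one of the earliest helicases, had the smallest response of the 56 after 30 min at 37 °C, -1.29 ± 0.28.

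The 2 rRNA methyltransferases and the 5 early scaffold genes fell in each wild-type condition, with medians of -5.54 and -4.39 at 37 °C for 10 min. NOP2, which methylates a cytosine of the 25S rRNA, stood at 314.36, 387.15 and 283.18 CPM at 25 °C and at 9.19, 16.35 and 8.52 CPM after 10 min at 37 °C. By 30 min at 37 °C its 3 wild-type libraries were at 87.08, 76.54 and 63.81 CPM, all above those at 10 min. Its partner in this role, SPB1, a 2′-O-methyltransferase, had no PAC match and fell in all 16 heat conditions. URB1, part of an early helicase-bearing complex with Urb2, stood at 114.23, 189.85 and 166.19 CPM at 25 °C and at 9.19, 12.54 and 4.26 CPM after 10 min at 37 °C. The Noc genes MAK21, NOC2 and NOC3, whose products escort the earliest particles, fell in all 16 conditions too.

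The 7 genes of the Nop7 complex and its neighbours at the second internal spacer fell with a median of -5.29 at 37 °C for 10 min. ERB1 stood at 198.74, 247.67 and 179.11 CPM at 25 °C, at 8.78, 9.54 and 3.04 CPM after 10 min and at 37.38, 32.11 and 31.47 CPM after 30 min at 37 °C. Its log2 fold change at 10 min was -4.84 ± 0.31 (adjusted p = 9.7e-18, edgeR). NOP7 had the largest response of the 56 after 30 min at 37 °C, -3.88 ± 0.43. RLP7, a relative of ribosomal protein L7 that sits on the spacer, had 3 counts in the 3 wild-type libraries after 10 min at 37 °C against 836 at 25 °C. This is a ratio of 0.00637 (95% exact interval 0.00131 to 0.0187, counting error only).

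The 10 genes of the Nsa1 module, the Brx1-Ebp2 pair and the Ssf1-Rrp14-Rrp15 group included 6 of the 10 genes not called lower in every heat condition. All 10 fell in each wild-type condition, with medians of -5.54 and -2.66 at 10 min of 37 °C and 42 °C. After 10 min at 42 °C, 7 fell in Hsf1-depleted, 5 in MSN-deleted and 6 in double-loss cells, while in each of these states all 9 GTPases and nucleoplasmic factors fell. NSA1, which names the module, stood at 106.06, 117.92 and 96.81 CPM at 25 °C in wild type and at 48.22, 36.83 and 46.86 CPM after 10 min at 42 °C. Hsf1-depleted cells had 34.2, 65.13 and 68.06 CPM of NSA1 in that condition against 107.49, 66.45 and 99.46 CPM at 25 °C, and these groups overlapped. MAK16, a further member of the module, had 0 counts in all 3 wild-type libraries after 30 min at 42 °C, against 27.65, 33.01 and 43.83 CPM at 25 °C. Taking 3 counts per library as the floor, it was at least 50.4-fold lower, and in Hsf1-depleted cells, again with 0 counts, at least 40.7-fold lower. With MAK16 and CGR1, the other gene at 0 there, set at their bounds, the wild-type median at 42 °C for 30 min was -5.73.

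The pair that loads the 5S particle had larger responses than most. RPF2 stood at 54.77, 77.47 and 85.38 CPM at 25 °C and at 0.41, 0.27 and 0.91 CPM after 10 min at 37 °C in wild type, a log2 fold change of -7.10 ± 0.77 (adjusted p = 6.4e-11, edgeR) that rests on few counts. RRS1, its partner, had 3 counts in all after 30 min at 42 °C in wild type, a ratio to 25 °C of 0.00383 (95% exact interval 0.00079 to 0.0112). The other 6 nucleolar proteins had a median of -4.90 at 37 °C for 10 min. Among them PUF6, also known to hold back ASH1 mRNA, stood at 221.51, 248.81 and 240.14 CPM at 25 °C and at 1.84, 3.82 and 4.56 CPM after 10 min at 37 °C.

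The 9 GTPases and nucleoplasmic factors fell in all 16 heat conditions and had a wild-type median of -6.11 at 37 °C for 10 min. NOG1, a GTPase that follows the particle from the nucleolus to the cytoplasm, stood at 559.52, 830.01 and 570.73 CPM at 25 °C, at 6.81, 11.56 and 5.92 CPM after 10 min and at 110.6, 111.45 and 171.35 CPM after 30 min at 37 °C. The log2 fold change at 10 min was -6.35 ± 0.35 (adjusted p = 1.6e-19, edgeR). NIP7 had 1 count in the 3 wild-type libraries after 30 min at 42 °C against 1936 at 25 °C, a ratio of 0.000829 (95% exact interval 2.1e-05 to 0.00463). The placeholder MRT4, which occupies the site of stalk protein P0, stood at 75.29, 70.03 and 107.74 CPM at 25 °C and at 0.82, 1.09 and 1.83 CPM after 10 min at 37 °C.

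The 5 export and cytoplasmic factors fell in each wild-type condition, with log2 fold changes from -7.01 to -2.02 after 10 min at 42 °C. REI1, which removes Arx1 in the cytoplasm, stood at 199.95, 212.94 and 175.93 CPM at 25 °C and at 2.45, 0.66 and 0.97 CPM after 10 min at 42 °C in wild type. Its log2 fold change of -7.01 ± 0.49 (adjusted p = 1.5e-16, edgeR) was the largest of the 56 there, and it was also the largest in the other 3 states at 42 °C for 10 min (-6.79, -5.40 and -4.82). TIF6 kept 78.01, 113.1 and 94.64 CPM after 10 min at 37 °C from 510.14, 668.59 and 430.38 CPM at 25 °C, a log2 fold change of -2.49 ± 0.20. LSG1, the GTPase that releases the export adaptor Nmd3, changed by -2.89 ± 0.27 in the same condition.

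Genes for relatives of ribosomal proteins and the related ribosomal protein genes differed in size of response. RLP24 stood at 179.09, 209.32 and 169.97 CPM at 25 °C and at 2.25, 2.73 and 7.3 CPM after 10 min at 37 °C in wild type, a log2 fold change of -5.55 ± 0.40. RPL24A and RPL24B, which encode the protein that replaces it, changed by -2.55 and -1.38. MRT4 changed by -6.11 ± 0.66 and RPP0, which encodes P0, by -1.43. RLP7 changed by -7.08 in the fit, with the few counts given above, and RPL7A and RPL7B by -1.32 and -2.53. These differences between genes were not tested.

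From 10 to 30 min at 37 °C most of the genes rose in the 2 DMSO states, whereas in the 2 rapamycin states 37 and 27 of the 56 fell and 0 and 1 rose. In wild type 47 of the 56 rose (median 2.63, all genes called higher 10.3%), and in MSN-deleted cells 48 rose (median 2.48, all genes 7.51%), with 46 in both. The 37 that fell were those of Hsf1-depleted cells (median -1.76, all genes called lower 14.8%). In double-loss cells the 27 that fell (median over the 56 -0.99, all genes called lower 14.7%) stood beside 1, RRP1, that rose (all genes called higher 11.4%). Without the 5 libraries the double-loss counts were 34 and 0. As many as 33 genes rose in wild type and fell in Hsf1-depleted cells. How many of all genes moved so in 2 states at once was not counted, here or for the 46 above. The rise did not reach the 25 °C level in wild type, where all 56 were still lower at 30 min.

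**Figure D4:**
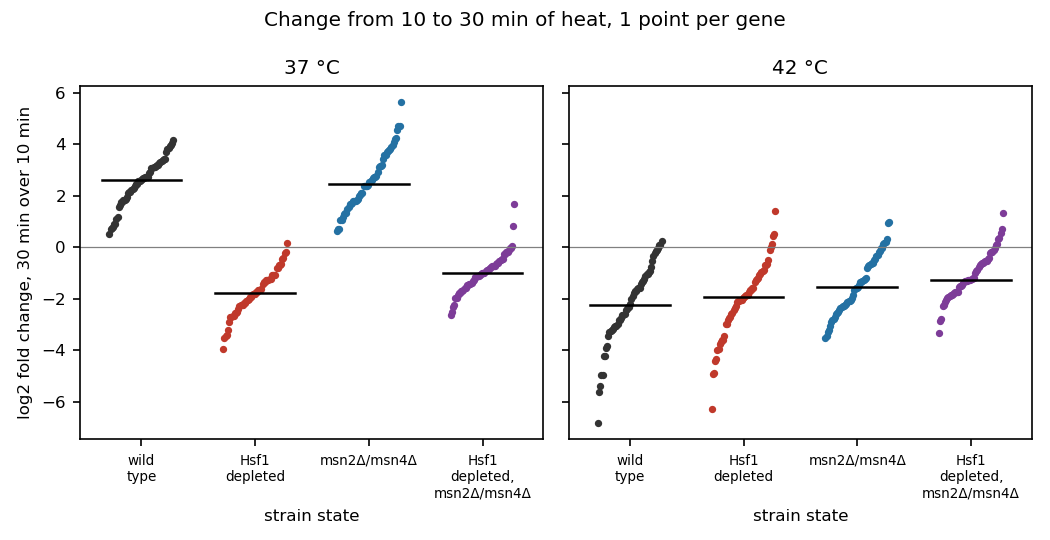
Log2 fold change from 10 to 30 min of heat (y axis) for each of the 56 genes, sorted within each strain state (x axis), at 37 °C (left) and 42 °C (right), with a bar at the median. At 37 °C the medians are 2.63 in wild type, -1.76 in Hsf1-depleted, 2.48 in MSN-deleted and -0.99 in double-loss cells, and at 42 °C all 4 are below 0.

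The difference between states in this 10-to-30-min change was tested as an interaction. At 37 °C the change in Hsf1-depleted cells lay below that in wild type for 55 of 56 genes (median difference -4.43, all genes called lower 19.4%), with 55 also with the set as a term and 54 without the 5 libraries. The gene not called was RRP1. For double-loss cells it was 52 of 56 (median -3.57, all genes 17.5%), with 53 without the 5 libraries. For MSN-deleted cells 0 genes were called (median difference 0.22, all genes in either direction 3.06%), and 1 without the 5 libraries. At 42 °C the counts were 0 for Hsf1-depleted cells (all genes in either direction 0.626%), 2 higher for MSN-deleted (all genes called higher 1.81%) and 5 higher for double-loss cells (all genes called higher 2.29%). The 2 in MSN-deleted cells were the export adaptor gene NMD3 (2.16 ± 0.59) and the helicase gene DBP6 (1.56 ± 0.43). The 5 in double-loss cells were NMD3 (2.51 ± 0.56), DBP6 (1.66 ± 0.42), the helicase gene DRS1 (1.74 ± 0.46), YTM1 of the Nop7 complex (1.63 ± 0.38) and RPF1 (1.79 ± 0.54). With the set as a term the double-loss count was 12, and without the 5 libraries the counts were 0, 1 and 11.

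NOG2 showed the largest difference at 37 °C. Its wild-type libraries went from 0.41, 1.09 and 1.83 CPM at 10 min to 13.83, 18 and 18.17 CPM at 30 min, and its Hsf1-depleted libraries from 6.33, 0.92 and 8.35 CPM to 0.23, 0.99 and 1.42 CPM. The wild-type times did not overlap, and the Hsf1-depleted times did. The difference was -6.47 ± 0.77 (adjusted p = 2.7e-09, edgeR) in Hsf1-depleted and -6.50 ± 0.71 (adjusted p = 3.6e-10) in double-loss cells. NIP7 differed by -6.29 ± 1.02 in Hsf1-depleted cells, and NOP4, an RNA-binding protein of early particles, by -6.17 ± 0.70 in double-loss cells. MAK16 gave -6.39 in Hsf1-depleted cells, a fitted value on 3 counts at 30 min. The other genes named here also had few counts. Wild-type counts at 10 min were 2, 4 and 6 for NOG2, 3, 9 and 0 for NIP7 and 3, 4 and 3 for NOP4. Hsf1-depleted counts at 30 min were 1, 5 and 10 for NOG2 and 1, 4 and 3 for NIP7.

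NOG1 and NOP2 had higher counts. In Hsf1-depleted cells NOG1 went from 34.9, 45.85 and 11.01 CPM at 10 min to 15.15, 13.87 and 14.6 CPM at 30 min of 37 °C, and in double-loss cells from 74.87, 77.15 and 59.52 to 50.64, 49.73 and 54.49 CPM. The Hsf1-depleted times overlapped, with a log2 fold change of -1.08 ± 0.29 that was called (adjusted p = 0.0026, edgeR). The double-loss times did not overlap, and the log2 fold change of -0.45 ± 0.27 was not called (adjusted p = 0.20, edgeR). In MSN-deleted cells it went from 5.92, 5.13 and 4.64 up to 86.42, 118.36 and 96.52 CPM. NOP2 in Hsf1-depleted cells went from 48.82, 13.4 and 29.36 CPM to 3.9, 5.94 and 4.54 CPM, and its interaction with wild type was -5.41 ± 0.47 (adjusted p = 8.7e-13, edgeR). The smallest called differences were those of SSF2 (-1.70 ± 0.61) and NSA1 (-1.41 ± 0.38).

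**Figure D5:**
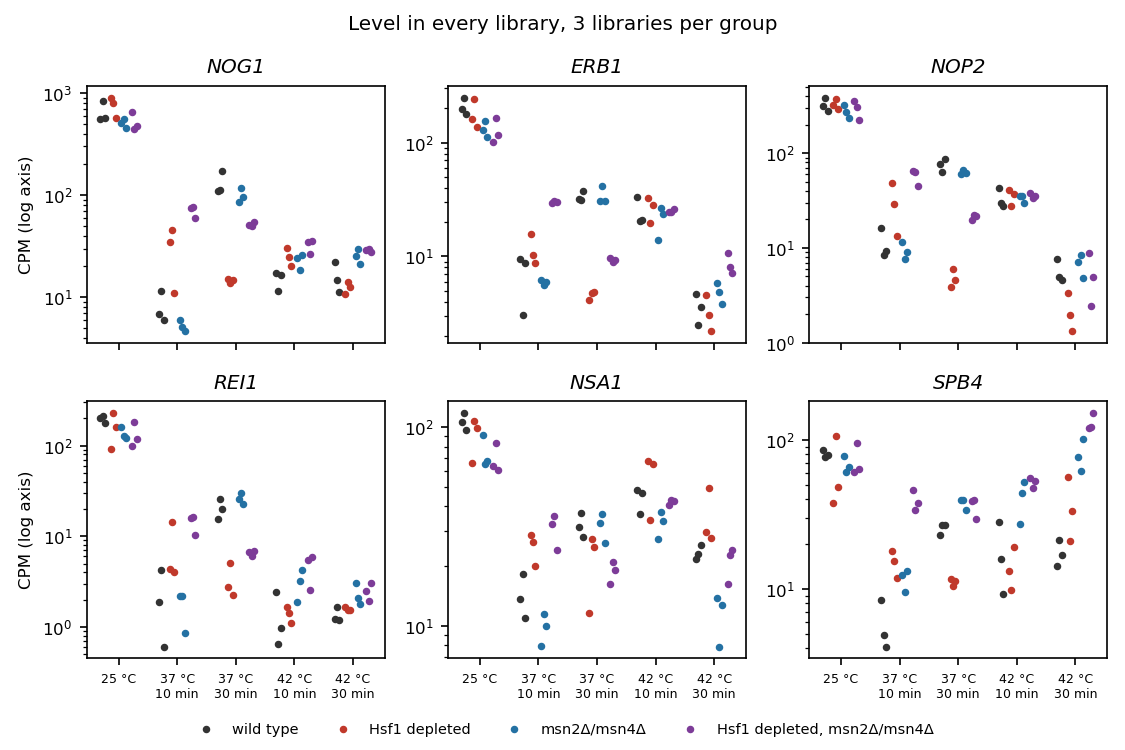
CPM in every library (y axis, log axis) for NOG1, ERB1, NOP2, REI1, NSA1 and SPB4 by condition (x axis) and strain state (colour), with 1 point per library. NOG1 at 37 °C for 30 min lies at 110.6 to 171.35 CPM in wild type and at 13.87 to 15.15 CPM in Hsf1-depleted cells, and SPB4 at 42 °C for 30 min lies at 120.09 to 151.58 CPM in double-loss cells.

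At 37 °C for 30 min the Hsf1-depleted heat response was accordingly deeper than that of wild type for 41 of the 56 genes (median difference -2.45, all genes called lower 14.8%), with 52 without the 5 libraries. The largest differences were those of NOP13 (-4.22 ± 0.91) and RRS1 (-4.16 ± 0.85), and NSA1 was not called (-0.36 ± 0.36, adjusted p = 0.52, edgeR). NOP13 stood at 6.91, 8.11 and 12.02 CPM in wild type and at 0.23, 0.2 and 0.57 CPM in Hsf1-depleted cells. In these Hsf1-depleted libraries NOP13 and RRS1 each had 1, 1 and 4 counts. By role, 8 of 10 helicases, both methyltransferases, all 5 early genes, 5 of 7 Nop7 genes, 3 of 10 of the Nsa1 set, 8 of 9 nuclear factors and all 5 export factors were called lower. The rest of the 41 belonged to the 5S pair and the other nucleolar proteins, with RRS1 and NOP13 among them.

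In double-loss cells at 37 °C for 30 min, 16 genes were lower (all genes called lower 16.7%) and 1 higher (all genes called higher 9.64%) relative to the wild-type response, with a median of -0.58. BRX1 had the largest negative difference, -2.51 ± 0.39. RRP1 had the positive one, 2.93 ± 0.93, and its 3 double-loss libraries, 19.87, 5.32 and 2.48 CPM, were far apart. The highest is replicate 2, one of the 5 libraries far from their mates. The total was 11 without wild type at 25 °C replicate 1 or replicate 3, and with library totals alone 4 were lower and 2 higher.

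After 10 min at 37 °C the double-loss cells had the highest relative level of these genes. Their share of counts was 0.168% ± 0.008, against 0.027% ± 0.0077 in wild type, 0.0673% ± 0.0205 in Hsf1-depleted and 0.0387% ± 0.0056 in MSN-deleted cells, and the double-loss libraries lay above those of the other 3 states. The heat response was higher (less negative) than in wild type for 52 genes (median difference 2.95, all genes called higher 11%), with 54 without the 5 libraries. MTR4 stood at 25.88, 20.28 and 18.25 CPM in double-loss cells against 1.23, 1.91 and 1.22 CPM in wild type, a difference in response of 4.39 ± 0.56 (adjusted p = 5.3e-08, edgeR). RLP7 differed by 4.54 with 3 counts behind its wild-type value. HAS1 was among the smaller called differences at 1.27 ± 0.42.

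With 1 loss the difference at 37 °C for 10 min was smaller in count. In Hsf1-depleted cells 16 genes were higher than in wild type (median 1.67, all genes called higher 1.65%). That count was 2 without the 5 libraries, 2 in a fit of the compared groups alone, 34 with the set as a term and 25 in DESeq2. Leaving out 1 library gave 3 (without wild type at 37 °C for 10 min replicate 3), 4 (without Hsf1-depleted at 25 °C replicate 1), 7 and 9 (without Hsf1-depleted at 37 °C for 10 min replicate 2 or 1), 10 (without wild type at 25 °C replicate 2) or 30 (without Hsf1-depleted at 25 °C replicate 2). NOP12, an RNA-binding protein, differed by 3.24 ± 0.83, with 4, 3 and 2 counts in wild type at 37 °C for 10 min. In MSN-deleted cells 4 were higher (median 0.37, all genes called higher 3.57%), the helicase genes DBP9 (2.88 ± 0.93) and MTR4 (2.07 ± 0.59), RPF1 of the Nsa1 module (2.52 ± 0.64) and RRP14 (2.44 ± 0.82). That count was 10 with the set as a term and 1 without wild type at 37 °C for 10 min replicate 3. DBP9 had 1, 2 and 3 counts in wild type at 37 °C for 10 min. Whether the double-loss difference exceeds the sum of the single ones was not tested.

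At 37 °C for 30 min the MSN-deleted response was called different from that of wild type for 0 genes (all genes in either direction 0.264%). The median difference was 0.70, beside 0.01 over all genes, and DESeq2 also called 0 of the 56.

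At 42 °C between 29 and 40 of the 56 genes fell from 10 to 30 min, depending on the state, and the median was below 0 in all 4. In wild type 40 fell (median -2.24, all genes called lower 16.3%). In Hsf1-depleted cells 39 fell (median -1.94, all genes 16.8%) and 1 rose (all genes called higher 9.97%). In MSN-deleted cells 34 fell (median -1.54, all genes 13.4%). In double-loss cells 29 fell (median -1.25, all genes 13.4%) and 1 rose (all genes called higher 10.2%), and with library totals alone these were 18 and 1. As many as 28 genes fell in all 4 states, and the share of all genes that did so was not counted. The gene that rose in both rapamycin states was SPB4. NMD3, the export adaptor, had log2 fold changes of -5.38 ± 0.43 in wild type and -4.91 ± 0.40 in Hsf1-depleted cells.

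Within wild type the order of the temperatures turned between the times. After 10 min 28 genes were higher at 42 °C than at 37 °C (median 1.51, all genes called higher 15.4%), led by RPF1 at 4.65 ± 0.49. After 30 min 51 were lower at 42 °C (median -3.26, all genes called lower 22.3%). The genes not called at 30 min included SPB4 (-0.55 ± 0.32), NSA1 (-0.46 ± 0.26) and RRP14 (0.36 ± 0.53).

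Differences between states at 42 °C for 10 min were few. Hsf1-depleted cells had 0 genes called (all genes in either direction 1.12%) and MSN-deleted cells 4 higher (all genes called higher 2.92%), which were RRP15 (3.17 ± 1.06), MRT4 (2.58 ± 0.72), SSF2 (1.803 ± 0.55) and SPB4 (1.44 ± 0.44). Double-loss cells had 8 higher (all genes called higher 2.55%), with REI1 at 2.19 ± 0.61. Without the 5 libraries these counts were 0, 17 and 24, and with the set as a term 0, 12 and 16. Leaving out 1 library at a time gave 0 to 11 for MSN-deleted and 2 to 17 for double-loss cells. RRP15 had 10, 3 and 0 counts in the wild-type libraries at 42 °C for 10 min.

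After 30 min at 42 °C genes were called higher than in the wild-type response in both MSN-deleted states. The heat response was higher for 27 genes in MSN-deleted cells (median 1.58, all genes called higher 12.7%) and for 32 in double-loss cells (median 2.11, all genes called higher 17.1%), and for 0 in Hsf1-depleted cells (all genes in either direction 3.26%). The count in MSN-deleted cells was 17 without wild type at 42 °C for 30 min replicate 2. The Hsf1-depleted median difference was 0.51 for the 44 genes with both motif cores and 0.93 for the 12 with 1. Shares of counts there were 0.0282% to 0.0464% in Hsf1-depleted cells and 0.0173% to 0.0202% in wild type, without overlap. They were 0.04% to 0.0612% in MSN-deleted and 0.087% to 0.1239% in double-loss cells. NIP7 stood at 0, 0 and 0.25 CPM in wild type and at 5.65, 2.04 and 1.39 CPM in double-loss cells, a fitted difference of 5.07 ± 1.29 (adjusted p = 0.0019, edgeR) that rests on 1 count in wild type. NSA2, a nuclear factor with 1 count in wild type, differed by 4.94 in the fit. In MSN-deleted cells NOP16 and RRP1 differed by 4.14 and 4.43, with 3 and 1 counts in wild type. PUF6 with 0.21, 0.24 and 1.47 CPM in wild type and 5.65, 4.08 and 3.31 CPM in double-loss cells differed by 3.17 ± 0.60.

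SPB4, a helicase of the late nucleolar particle, followed the other genes least. The correlation of its mean log2 CPM over the 20 groups with the mean of the other 55 was 0.59, against a median of 0.96 over the 56 genes, and RRP14 (0.71), RPF1 (0.82), NSA1 (0.83) and RRP1 (0.84) came next. At 25 °C SPB4 stood at 85.55, 76.32 and 79.02 CPM in wild type, and after 30 min at 42 °C at 21.42, 16.73 and 14.23 CPM. In double-loss cells it stood at 95.69, 61.39 and 63.61 CPM at 25 °C and at 120.09, 151.58 and 122.3 CPM after 30 min at 42 °C, where all 3 heat libraries lay above all 3 at 25 °C. That log2 fold change, 0.83 ± 0.30 (adjusted p = 0.015, edgeR), was short of the size used for a call, and it was 1.04 without double-loss at 25 °C replicate 2 and 1.15 without the 5 libraries, both called. It was 0.69 (adjusted p = 0.071, edgeR) without double-loss at 42 °C for 30 min replicate 3, and 0.78 (adjusted p = 0.047) without double-loss at 25 °C replicate 1. The difference from the wild-type response was 3.03 ± 0.44 (adjusted p = 6e-07, edgeR). From 10 to 30 min at 42 °C SPB4 rose by 1.42 ± 0.32 (adjusted p = 0.00043, edgeR) in Hsf1-depleted and by 1.34 ± 0.31 (adjusted p = 0.00048) in double-loss cells.

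The genes called lower in fewer than 16 heat conditions were SPB4 (9), NOP16, RRP1 and SSF2 (12 each), RPF1 (13), NSA1, RRP14 and RRP15 (14 each) and URB2 and YTM1 (15 each). RRP14, which binds Ssf1, stood at 33.12, 16.98 and 17.27 CPM at 25 °C and at 49.27, 34.78 and 11.77 CPM after 10 min at 42 °C in MSN-deleted cells, groups that overlapped. The lowest of these heat libraries is replicate 1, among the 5 libraries far from their mates. RRP14, RRP15, HAS1, NOP4, NOP13 and REI1 overlap a gene on the opposite strand, and whether counting used the strand is not given in the sources used here, so reads of the partner cannot be told apart. The paralogs SSF1 and SSF2 differed in level after heat. SSF1 had 0.2, 0 and 0 CPM and SSF2 2.45, 4.63 and 5.78 CPM after 10 min at 37 °C in wild type, from 10.95, 14.5 and 12.42 CPM and 19.3, 25.76 and 23.26 CPM at 25 °C. For SSF1 that is 1 count against 264, a ratio of 0.00673 (95% exact interval 0.00017 to 0.0378).

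Genes with both motif cores and genes with 1 of them gave overlapping ranges. At 37 °C for 10 min in wild type the 44 genes with both had a median log2 fold change of -5.59 (range -7.10 to -2.43) and the 12 with 1 had -4.49 (range -6.23 to -2.91). For the Hsf1-depleted interaction over time at 37 °C the medians were -4.57 and -2.86. No test was made of these.

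Related genes moved in the same direction, to different degrees. At 37 °C for 10 min in wild type all 48 small subunit processome genes fell (median -4.71), 31 of 34 other large subunit factors (median -2.98), 12 of 15 RNA polymerase I genes (median -2.69) and 66 of 74 large subunit protein genes (median -2.14). Over all genes 22.2% were called lower and 21% higher there. Of 12 regulators of the regulon, 2 fell and 5 rose, with TOD6 at -4.65, DOT6 at 3.39 and STB3 at 2.82. DOT6 did not rise in every state. In MSN-deleted cells it stood at 191, 236.65 and 275.1 CPM at 25 °C and at 167.92, 167.01 and 76.1 CPM in that condition. The double-loss libraries went from 425.45, 91.95 and 292.61 to 89.5, 141.7 and 75.79 CPM. Those of Hsf1-depleted cells went from 737.46, 209.3 and 385.48 up to 1359.51, 1058.27 and 1515.63 CPM. The part of DOT6 in the fall was not tested. From 10 to 30 min at 37 °C the large subunit protein genes had a median of 1.23 in wild type, with 42 of 74 higher (all genes 10.3%), and of -3.30 in Hsf1-depleted cells, with 69 of 74 lower (all genes 14.8%). For the double-loss response at 37 °C for 30 min against wild type they had a median of -3.08 with 67 of 74 lower (all genes 16.7%), beside -0.58 and 16 of 56 for the assembly factors. The processome genes had -0.72 and 14 of 48 lower there. Because the comparisons share libraries, these values are given side by side with no test between lists.

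The authors' deposited table of heat responses, made with DESeq2 or DESeq, gave the same direction for all 56 genes in each of the 16 conditions. At its false discovery rate under 0.05 and a log2 fold change of -1 or less, the authors' deposited table had 56 of 56 lower in each wild-type condition. The largest absolute gap between the authors' deposited table and the fit used here was 1.19 on the log2 scale, in wild type at 42 °C for 30 min, where the lowest counts were.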

How the data were processed

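Poly(A) libraries (Lexogen SENSE mRNA kit, single reads of 50 bases, per the labels' protocols) were deposited as 60 tables of raw read counts per gene. Per the submitters' processing notes, the authors used bcl2fastq 1.8.4, featureCounts 2.0.0, DESeq2 1.28.1 and build R64, and the file headers name trimming and ContextMap. A second table holds log2 fold changes and adjusted p-values of heat responses that the authors computed and deposited. It was used only where it is named.

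From the counts, genes with too few reads were removed with filterByExpr (6070 of 7126 kept), library sizes were scaled with TMM, and edgeR 4.0.16 (R 4.3.3) fitted 20 group means over all 60 libraries with a quasi-likelihood model. A gene was called at a Benjamini-Hochberg adjusted p under 0.05 and a log2 fold change of at least 1 in size, in 48 comparisons. Differences between states are interactions in the same fit, and comparisons that use the same wild-type libraries are not independent. The procedure was tested on simulated data. Alternatives were other size factors, library totals, no filter, DESeq2 1.42.0, the compared groups alone, a stricter p, the library set, the replicate number as a block, and each library left out. The fit without the 5 farthest libraries was chosen after seeing the data.

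The members and gene lists were chosen with earlier results of these data known. All 56 may be named. Values per library were given for a fixed member of each role, for the paralogs and the relatives of ribosomal proteins, and for the 2 highest and 2 lowest members of a comparison. Upstream windows were read from the RefSeq R64 genome.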

Additional observations from a re-analysis of the deposited data

Results flagged for a closer look

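The results below differed between strain states by the interaction test of the same fit, and the comparisons share the wild-type libraries.

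Shares in brackets are those of all 6070 genes called in the same direction. Relative to the wild-type heat response, 16 of the 56 genes were higher after 10 min (1.65%) and 41 lower after 30 min (14.8%) at 37 °C in Hsf1-depleted cells. In MSN-deleted cells 4 were higher after 10 min at 37 °C (3.57%), and 4 after 10 min (2.92%) and 27 after 30 min (12.7%) at 42 °C. In double-loss cells 52 were higher after 10 min at 37 °C (11%), and 17 were called at 30 min, of which 16 were lower (16.7%) and 1 higher (9.64%). At 42 °C the double-loss counts were 8 higher (2.55%) and 32 higher (17.1%). The change from 10 to 30 min at 37 °C was lower for 55 genes in Hsf1-depleted (19.4%) and 52 in double-loss cells (17.5%). At 42 °C it was higher for 2 in MSN-deleted (1.81%) and 5 in double-loss cells (2.29%).

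Single genes differed as follows, on the log2 scale. The values of RLP7 at 37 °C for 10 min and of NIP7, NSA2, NOP16 and RRP1 at 42 °C for 30 min rest on 3 counts or fewer in wild type. Counts were low for several others too. In wild type at 37 °C for 10 min NOP12 had 4, 3 and 2 counts and DBP9 had 1, 2 and 3. RRP15 had 10, 3 and 0 counts in wild type at 42 °C for 10 min. NOP13 and RRS1 each had 1, 1 and 4 counts in Hsf1-depleted cells at 37 °C for 30 min. In Hsf1-depleted cells NOP12 differed by 3.24 at 37 °C for 10 min, and NOP13 by -4.22 and RRS1 by -4.16 at 30 min. In MSN-deleted cells at 37 °C for 10 min DBP9 differed by 2.885, RPF1 by 2.52, RRP14 by 2.44 and MTR4 by 2.07. At 42 °C for 10 min the MSN-deleted values were 3.165 for RRP15, 2.585 for MRT4, 1.803 for SSF2 and 1.435 for SPB4, and at 30 min they were 4.14 for NOP16 and 4.43 for RRP1. In double-loss cells MTR4 differed by 4.39, RLP7 by 4.54 and HAS1 by 1.27 at 37 °C for 10 min, and BRX1 by -2.51 and RRP1 by 2.93 at 30 min. At 42 °C the double-loss values were 2.195 for REI1 at 10 min, and 5.07 for NIP7, 4.94 for NSA2, 3.17 for PUF6 and 3.03 for SPB4 at 30 min.

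For the change from 10 to 30 min at 37 °C the differences in Hsf1-depleted cells were -6.475 for NOG2, -6.39 for MAK16 (3 counts at 30 min), -6.29 for NIP7, -5.41 for NOP2, -1.70 for SSF2 and -1.41 for NSA1. In double-loss cells they were -6.495 for NOG2 and -6.17 for NOP4. At 42 °C they were 2.16 for NMD3 and 1.56 for DBP6 in MSN-deleted cells. In double-loss cells they were 2.51 for NMD3, 1.785 for RPF1, 1.74 for DRS1, 1.66 for DBP6 and 1.63 for YTM1. At 37 °C the values of NOG2, NIP7 and NOP4 also rest on the low wild-type counts given above.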

How the results depend on the processing

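No count of called genes changed its main direction under any alternative run, and the counts for heat against 25 °C stayed within 1.5 times. For those that moved by more, the cause was not tested. The Hsf1-depleted difference at 37 °C for 10 min (16) was 34 with the library set as a term, 4 at an adjusted p under 0.01, 25 in DESeq2, 2 in the compared groups alone and 2 without the 5 libraries. At 42 °C for 30 min (0) it was 8 with library totals, 1 with the set and 1 in DESeq2. The MSN-deleted difference at 37 °C for 10 min (4) was 7 with RLE factors, 8 with totals, 7 with no filter, 10 with the set, 1 at the stricter p, 7 in DESeq2 and 9 alone, and at 30 min (0) it was 1 alone. At 42 °C for 10 min (4) it was 12 with the set, 0 at the stricter p, 7 in DESeq2, 12 alone and 17 without the 5 libraries, and at 30 min (27) it was 12 at the stricter p. The double-loss difference at 37 °C for 30 min (17) was 6 with totals and 9 at the stricter p. At 42 °C for 10 min (8) it was 21 with totals, 16 with the set, 1 at the stricter p and 24 without the 5 libraries. The double-loss change from 10 to 30 min at 42 °C (30) was 19 with totals. The difference in that change was 1 at 37 °C in MSN-deleted cells (0) without the 5 libraries. At 42 °C in MSN-deleted cells (2) it was 1 with totals, 0 at the stricter p, 0 alone and 1 without the 5 libraries, and in double-loss cells (5) it was 12, 2, 9 and 11 with the set, the stricter p, DESeq2 and without the 5 libraries. With library totals alone the all-gene median shifted by between -0.596 and 1.198 (log2).

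Leaving out each library in turn gave these ranges. The Hsf1-depleted difference ranged from 3 to 30 at 37 °C for 10 min (lowest without wild type at 37 °C for 10 min replicate 3, highest without Hsf1-depleted at 25 °C replicate 2) and from 0 to 2 at 42 °C for 30 min (highest without that same 25 °C library). The MSN-deleted difference ranged from 1 to 7 at 37 °C for 10 min (lowest without wild type at 37 °C for 10 min replicate 3, highest without MSN-deleted at 25 °C replicate 1 or at 37 °C for 10 min replicate 2). It ranged from 0 to 11 at 42 °C for 10 min (lowest without MSN-deleted replicate 2, highest without MSN-deleted or wild type replicate 1 of that condition) and from 17 to 27 at 30 min (lowest without wild type replicate 2). The double-loss difference ranged from 11 to 16 at 37 °C for 30 min (lowest without wild type at 25 °C replicate 1 or 3) and from 2 to 17 at 42 °C for 10 min (lowest without replicate 2 of wild type at 25 °C or at 42 °C for 10 min, highest without double-loss at 25 °C replicate 2). The difference in the change over time at 42 °C ranged from 0 to 1 in Hsf1-depleted (1 without wild type at 10 min replicate 3), 0 to 2 in MSN-deleted (0 without replicate 1 or 2 of MSN-deleted at 30 min, replicate 1 of wild type at 10 min, or replicate 2 or 3 of wild type at 30 min) and 2 to 8 in double-loss cells (without wild type at 10 min replicate 1 and 3).

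In most pairs of groups, same-numbered replicates did not deviate together. Their correlations of deviations ran from -0.672 to 0.862 with a median of -0.026. In 2 of 30 pairs of groups all 3 were over 0.1. These were double-loss at 37 °C for 30 min with 25 °C (0.12, 0.862 and 0.51) and wild type at 37 °C, 30 with 10 min (0.186, 0.553 and 0.354). In both, same-numbered replicates also shared a library set. So did MSN-deleted at 37 °C for 30 min with 25 °C (0.081, -0.112 and 0.322). Elsewhere number and set often differed, so neither this check nor a block by number tests pairing by set. With the replicate number as a block no count moved by over 1.5 times, for example 56 for wild type at 37 °C for 10 min, 17 for the Hsf1-depleted difference there and 55 for its change over time at 37 °C. Depth limits the genes with 3 counts or fewer in a group, whose fitted fold changes depend on the prior count.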
